A study of Homo sapiens with 12 samples.

Results

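The genes described here encode the factors that start protein synthesis in human cells. They were chosen as the protein-coding genes whose symbol begins with EIF1 to EIF6 and whose normalized count averaged at least 20 over 12 RNA-seq libraries. Of 55 genes with such a symbol, 53 met the minimum, among 12939 genes of any kind that did so and 22148 genes in the table. The pair left out were EIF4E3 (mean 9.75) and EIF4EBP3 (mean 11.2), and the lowest member kept was EIF5AL1 (mean 41.8). The libraries came from HepG2, a hepatocyte-like human liver cancer line. One arm, si-CPSF6, received siRNA against CPSF6, a subunit of cleavage factor Im, which binds pre-mRNA close to cleavage sites and so bears on where an mRNA ends. The other arm, si-NC, is the labelled control siRNA. All cells, in both arms, were then given actinomycin D, which stops transcription, at 5 µg/ml, 48 h after transfection, and were collected after 0, 3 or 6 h, with 2 biological replicates in each of the 6 groups.

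As background, initiation begins when eIF2 carries the initiator tRNA to the small ribosomal subunit, with eIF1, eIF1A, eIF3 and eIF5 bound to it. The eIF4F complex (the cap-binding eIF4E, the scaffold eIF4G and the helicase eIF4A) brings this assembly to the capped mRNA, and it then scans for the start codon. Cells restrain the process at eIF4E, through 4E-binding proteins controlled by mTOR, and at eIF2, through kinases that phosphorylate its alpha subunit and so block its exchange factor eIF2B. Liver cells, which make most plasma proteins, carry a heavy load of translation.

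Values are normalized counts, which the authors had scaled to an equal upper quartile in every library, unless TPM (transcripts scaled to a fixed library total, which also corrects for transcript length) is named. The normalized counts of a library summed to 19133288 to 33352246, with 1.13% to 1.43% in spike-in RNA. CPSF6 was at 674 to 810 in the 6 si-CPSF6 libraries, against 2082 to 3469 in the 6 si-NC libraries, so every library matched its siRNA label. ALB lay between 4060 and 5424 TPM in all libraries and the endothelial genes VWF and CDH5 at 0.169 TPM or less, while 4 of 9 hepatocyte markers were higher and 2 lower in si-CPSF6, averaged over the times. The third endothelial gene, PECAM1, averaged 0.474 TPM and reached 1.12 TPM. Of the 10 of 12 markers of other cell types that had a row, COL1A1 and KRT19 were higher in si-CPSF6, CD68, LYZ and ACTA2 were lower, PECAM1 did not pass and 4 were too low to test. Over these 10 the summed level was 649 to 1029 TPM in si-CPSF6 and 905 to 1185 TPM in si-NC, most of it LYZ and KRT19, and its part in the results was not tested. The 53 members took between 1% and 1.17% of the counts of a library. In these bulk samples, fewer cells of a type and less RNA per cell cannot be told apart.

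Per length, the members spanned a wide range. EIF3C averaged 985 TPM over the 12 libraries, EIF4A1 694 TPM, EIF5A 613 TPM and EIF6 428 TPM. At the low end stood EIF2AK2 (6.42 TPM), EIF5A2 (6.18 TPM), EIF2AK3 (3.88 TPM), EIF2S3B (3.69 TPM) and EIF5AL1 (0.418 TPM). The eIF3 subunits, which act in 1 complex, ranged between 23.9 TPM for EIF3A and 379 TPM for EIF3L, with EIF3C above them. EIF3C and EIF3CL are near-identical copies, and EIF2S3B, EIF5AL1 and EIF1AY closely resemble EIF2S3, EIF5A and EIF1AX, so the split of reads within each of these pairs is uncertain. Of the 53 members 20 overlap another annotated gene on their strand and 22 on the opposite strand only. EIF1AD lies opposite BANF1, EIF2AK2 opposite GPATCH11 and EIF4ENIF1 opposite DRG1 and SFI1. As the strand setting of the counting was not stated, reads of overlapping genes cannot be told apart.

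The first comparison asks how silencing CPSF6 changed the members' mRNA levels, averaged over the 3 times. Of the 53 members 16 were higher and 20 lower in si-CPSF6 at an adjusted p under 0.05 (limma, adjusted over all genes tested), or 67.9%. Over all 12939 genes 69.8% passed, 34.4% higher and 35.4% lower, so the share of members that passed lies near that of all genes. The members' median log2 difference was -0.07, against -0.01 over all genes. By role, 5 of 10 genes of eIF4F and its helpers rose and 2 fell, whereas 1 of 14 eIF3 genes rose and 8 fell. Among the regulators, all 4 eIF2 kinases and all 3 eIF4E inhibitors passed, and both groups were split between higher and lower members. The lowest value belonged to EIF4EBP2 (-1.40) and the highest to EIF2AK3 (0.80).

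**Figure D1:**
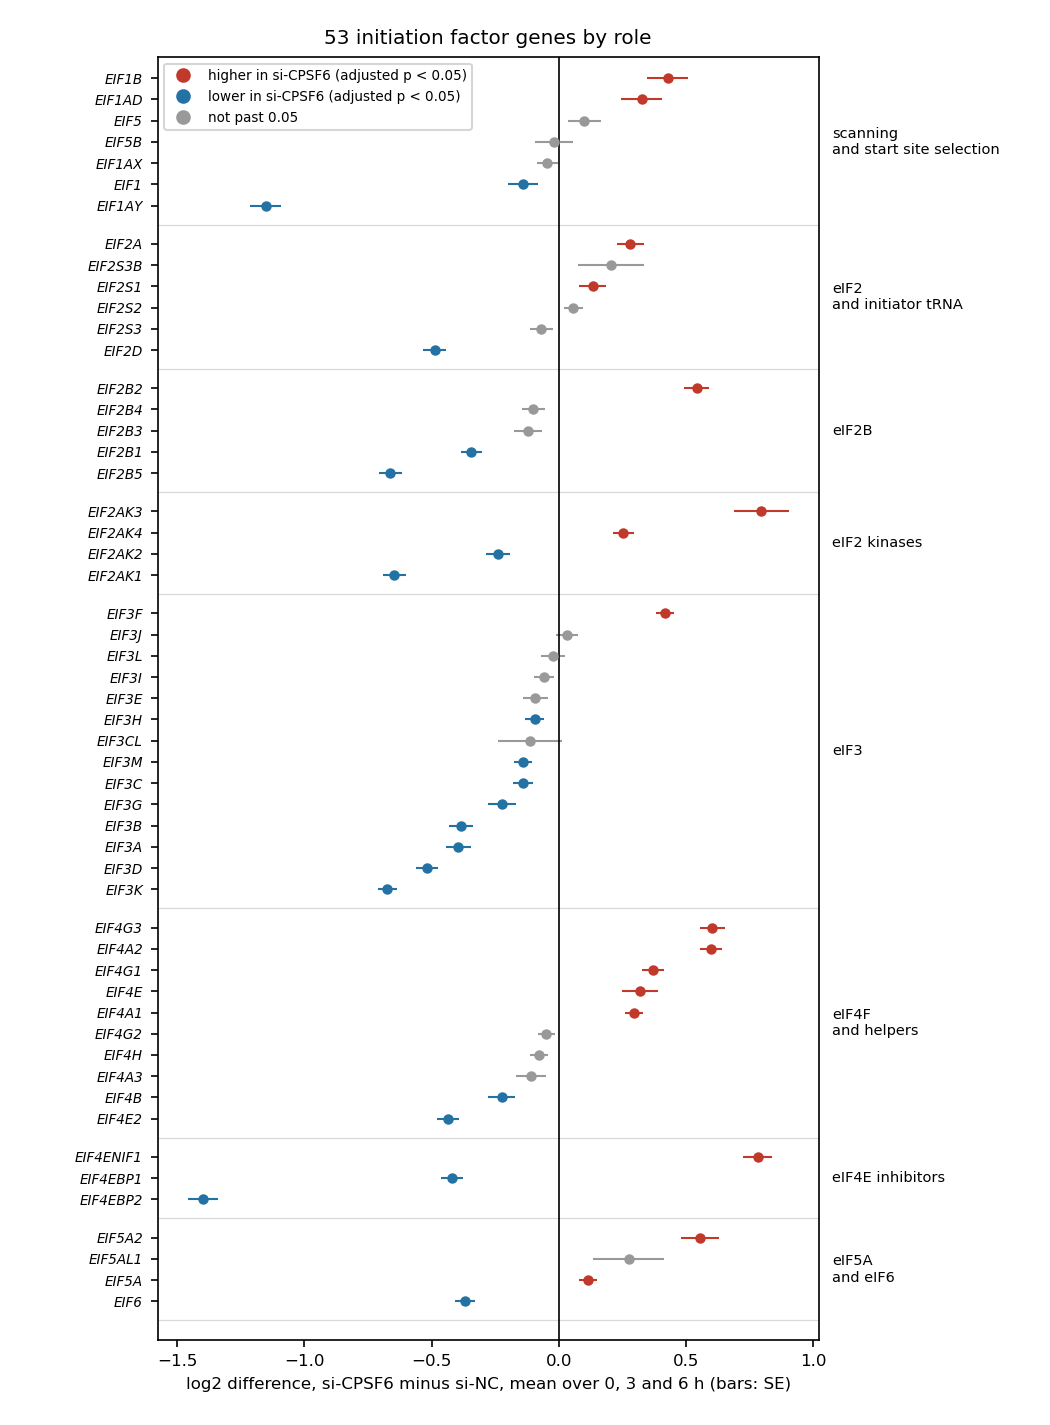
Log2 difference of each of the 53 members, si-CPSF6 minus si-NC, averaged over 0, 3 and 6 h, with bars for the standard error from limma and members grouped by role. Red points were higher and blue points lower at an adjusted p under 0.05. EIF4EBP2 stands at -1.40 and EIF2AK3 at 0.80. Of the eIF3 genes 8 of 14 are blue, against 35.4% of all genes that were lower.

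The eIF4E inhibitors held the largest fall. EIF4EBP2 (chromosome 10, 70404379 to 70428618 on hg38, GENCODE 29, overlapping no other annotated gene) binds eIF4E and keeps it from eIF4G until mTOR phosphorylates it. It had 1217 and 1303 at 0 h, 1298 and 1432 at 3 h and 1243 and 1392 at 6 h in si-CPSF6, against 2803 and 2892 at 0 h, 3843 and 3720 at 3 h and 3394 and 4384 at 6 h in si-NC. All 6 si-CPSF6 libraries lay below all 6 si-NC libraries, and the level stood at 0.379 of si-NC (log2 -1.40, SE 0.06, adjusted p = 6.7e-11). Its paralog EIF4EBP1, the better studied inhibitor, had 1298 and 1136 at 0 h, 2079 and 2103 at 3 h and 2595 and 2562 at 6 h in si-CPSF6, against 1363 and 1330 at 0 h, 2557 and 2466 at 3 h and 4841 and 4471 at 6 h in si-NC. The gap was -0.15 at 0 h, which did not pass, and -0.85 at 6 h, with an average difference of -0.42 (SE 0.04, adjusted p = 4.4e-07). EIF4ENIF1, or 4E-T, which carries eIF4E into the nucleus and to sites of mRNA storage, went the other way. It had 666 and 630 at 0 h, 502 and 489 at 3 h and 615 and 559 at 6 h in si-CPSF6, against 642 and 679 at 0 h, 213 and 207 at 3 h and 269 and 263 at 6 h in si-NC, an average difference of 0.78 (SE 0.06, adjusted p = 9.4e-09). The arms overlapped at 0 h and stood apart at 3 h and 6 h.

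**Figure D2:**
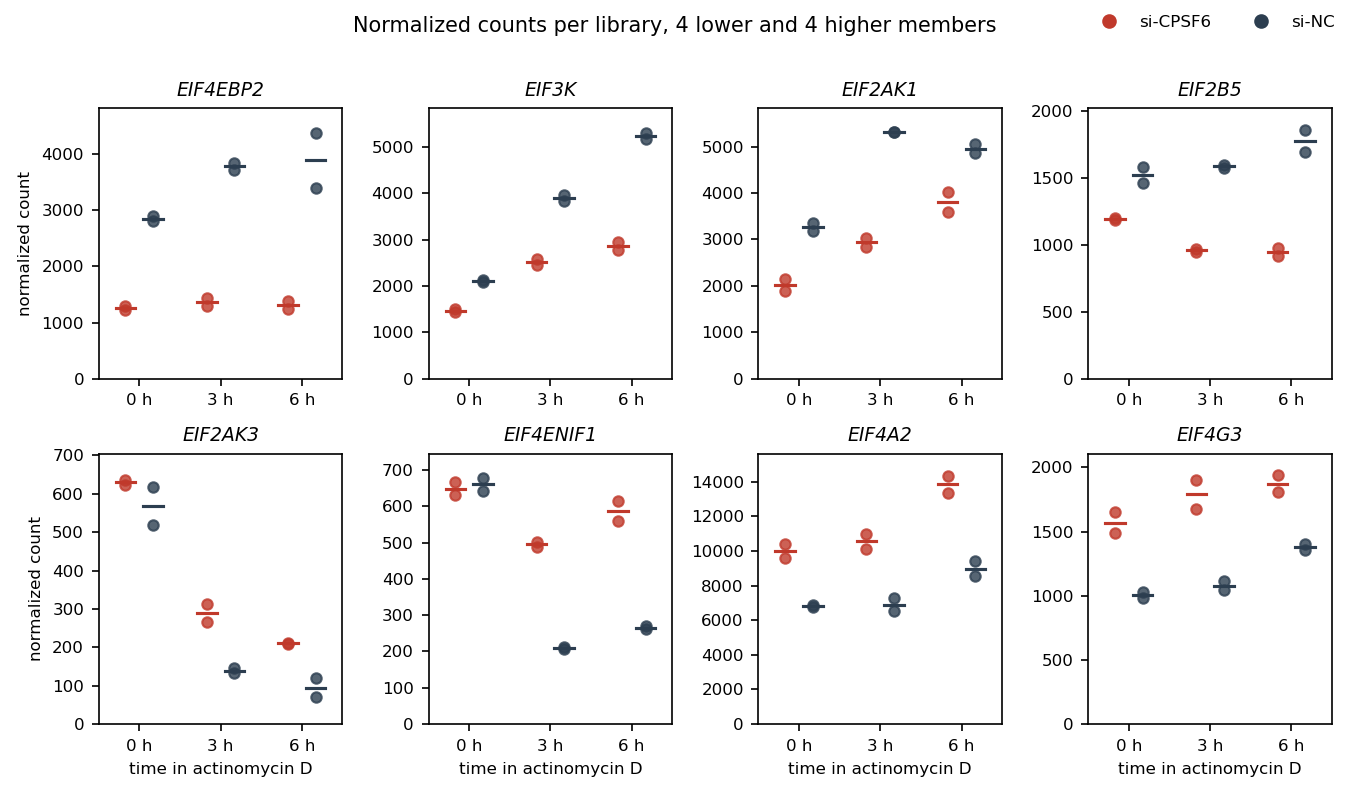
Normalized count in each library for 4 lower members (upper row) and 4 higher members (lower row) by time in actinomycin D, si-CPSF6 in red and si-NC in dark blue, with a bar at the mean of the 2 replicates. EIF4EBP2 stays between 1217 and 1432 in si-CPSF6, below every si-NC library, while EIF4ENIF1 and EIF2AK3 differ between arms mainly at 3 h and 6 h.

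Of the eIF4F subunits, the scaffolds EIF4G1 and EIF4G3, the helicases EIF4A1 and EIF4A2 and the cap-binding EIF4E all rose. EIF4G3, a scaffold paralog of EIF4G1, had 1653 and 1487 at 0 h, 1905 and 1676 at 3 h and 1939 and 1805 at 6 h in si-CPSF6, against 1032 and 985 at 0 h, 1111 and 1041 at 3 h and 1402 and 1358 at 6 h in si-NC (log2 0.60, SE 0.05). EIF4A2, one of a pair of near-equivalent helicases, had 10427 and 9614 at 0 h, 11012 and 10133 at 3 h and 14350 and 13373 at 6 h in si-CPSF6, against 6877 and 6769 at 0 h, 7279 and 6544 at 3 h and 9420 and 8555 at 6 h in si-NC (log2 0.60, SE 0.04, adjusted p = 1.3e-08). For both genes all 6 si-CPSF6 libraries lay above all 6 si-NC libraries. EIF4G1, the main scaffold, had 10918 and 11795 at 0 h, 17821 and 16167 at 3 h and 21333 and 19543 at 6 h in si-CPSF6, against 8732 and 9626 at 0 h, 12819 and 13756 at 3 h and 15008 and 14945 at 6 h in si-NC. It was higher within each time (log2 0.37, SE 0.04, adjusted p = 2.3e-06), while the ranges over all times overlapped. EIF4A1, the most abundant helicase, had 23665 and 22576 at 0 h, 29062 and 29097 at 3 h and 30042 and 31970 at 6 h in si-CPSF6, against 16701 and 15800 at 0 h, 20297 and 20696 at 3 h and 33176 and 34518 at 6 h in si-NC. Its average difference was 0.30 (SE 0.04, adjusted p = 3.6e-06), but at 6 h alone, a setting added after seeing the data, the difference was -0.13 (adjusted p = 0.10). EIF4A1 overlaps SENP3-EIF4A1 and 4 other annotated genes on its strand, so its counts are uncertain. EIF4E, the cap-binding subunit, had 2048 and 1843 at 0 h, 1420 and 1499 at 3 h and 881 and 986 at 6 h in si-CPSF6, against 1667 and 1626 at 0 h, 1326 and 1356 at 3 h and 519 and 733 at 6 h in si-NC (log2 0.32, SE 0.07, adjusted p = 0.0013).

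The remaining genes of this group did not share that direction. EIF4E2, a cap-binding relative that represses translation, fell by 0.44, and all its si-CPSF6 libraries (1078 to 1304) lay below all its si-NC libraries (1481 to 1724). EIF4B, which stimulates the helicase, fell by 0.23 (SE 0.05, adjusted p = 0.0019) as a count and not in TPM, where its difference was 0.13 (adjusted p = 0.059). EIF4H, another helicase cofactor, EIF4A3, a helicase of the exon junction complex, and EIF4G2, a scaffold that lacks the eIF4E site, had differences of -0.08, -0.11 and -0.05 that did not pass. EIF4G2 had 17169 and 17495 at 0 h, 27239 and 26688 at 3 h and 37295 and 36580 at 6 h in si-CPSF6, against 17404 and 17463 at 0 h, 28715 and 28248 at 3 h and 37724 and 39343 at 6 h in si-NC, and the arms differed at each time by less than 0.09 on the log2 scale.

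The eIF2 kinases each sense another stress, and the 4 genes did not move as 1 group. EIF2AK3 (PERK, the sensor of unfolded protein in the endoplasmic reticulum) had 636 and 623 at 0 h, 312 and 267 at 3 h and 208 and 212 at 6 h in si-CPSF6, against 618 and 519 at 0 h, 133 and 145 at 3 h and 71 and 119 at 6 h in si-NC. The gap was 0.15 at 0 h, which did not pass, 1.05 at 3 h and 1.18 at 6 h, for an average difference of 0.80 (SE 0.11, adjusted p = 1.3e-05). EIF2AK4 (GCN2, which responds to uncharged tRNA) had 2601 and 2606 at 0 h, 2684 and 2743 at 3 h and 2537 and 2500 at 6 h in si-CPSF6, against 2351 and 2394 at 0 h, 2295 and 2391 at 3 h and 1772 and 2014 at 6 h in si-NC, a smaller rise of 0.25 (SE 0.04) with no overlap between the 6 libraries of each arm. EIF2AK1 (HRI, the heme-regulated kinase) fell: it had 1890 and 2136 at 0 h, 2834 and 3036 at 3 h and 3589 and 4025 at 6 h in si-CPSF6, against 3174 and 3356 at 0 h, 5303 and 5321 at 3 h and 4861 and 5047 at 6 h in si-NC. Its level stood at 0.639 of si-NC (log2 -0.65, SE 0.04, adjusted p = 5.7e-09). EIF2AK2 (PKR, activated by double-stranded RNA) had 936 and 998 at 0 h, 1025 and 917 at 3 h and 791 and 791 at 6 h in si-CPSF6, against 1195 and 1122 at 0 h, 1152 and 1176 at 3 h and 887 and 927 at 6 h in si-NC. As a count it was lower (-0.24, SE 0.05, adjusted p = 0.00034), and in TPM it was higher (0.67, adjusted p = 2.3e-05), the only member called in opposite directions by the 2 tables; its apparent transcript length, given further on, differs between the arms.

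Of the subunits of eIF2 itself, 1 rose and none fell. EIF2S1, the alpha subunit that the kinases phosphorylate, had 1896 and 1921 at 0 h, 2071 and 2220 at 3 h and 1889 and 1973 at 6 h in si-CPSF6, against 1643 and 1685 at 0 h, 1963 and 2005 at 3 h and 1610 and 2051 at 6 h in si-NC. The difference was 0.13 (SE 0.05, adjusted p = 0.038) and did not pass with spike-in scaling (0.08, adjusted p = 0.46) or without any 1 of 9 libraries. The value was lowest without si-NC replicate 1 at 6 h (0.07, adjusted p = 0.12). EIF2S2 and EIF2S3, the beta and gamma subunits, had differences of 0.06 and -0.07 that did not pass, nor did the gamma copy EIF2S3B (0.20). A pair of genes outside the trimer, whose products also handle initiator tRNA, changed in opposite directions. EIF2A rose by 0.28 (SE 0.05), with every si-CPSF6 library (2591 to 3194) above every si-NC library (2115 to 2576). EIF2D fell: it had 960 and 951 at 0 h, 1538 and 1610 at 3 h and 2009 and 1898 at 6 h in si-CPSF6, against 1331 and 1176 at 0 h, 2182 and 2063 at 3 h and 3115 and 3000 at 6 h in si-NC (log2 -0.49, SE 0.04, adjusted p = 1.1e-07).

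The 5 subunits of the exchange factor eIF2B moved apart. EIF2B5, the catalytic epsilon subunit, had 1185 and 1198 at 0 h, 949 and 969 at 3 h and 917 and 975 at 6 h in si-CPSF6, against 1462 and 1585 at 0 h, 1577 and 1598 at 3 h and 1859 and 1694 at 6 h in si-NC (log2 -0.66, SE 0.04, adjusted p = 4.3e-09). EIF2B2, the beta subunit, had 801 and 777 at 0 h, 891 and 965 at 3 h and 870 and 912 at 6 h in si-CPSF6, against 560 and 515 at 0 h, 597 and 606 at 3 h and 626 and 684 at 6 h in si-NC (log2 0.54, SE 0.05, adjusted p = 1.7e-07). The 6 libraries of each arm did not overlap for either gene, with EIF2B5 lower and EIF2B2 higher in si-CPSF6. EIF2B1 (alpha) also fell, by 0.34, while EIF2B3 (gamma, -0.12) and EIF2B4 (delta, -0.10) did not pass.

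eIF3 is the large complex that binds the small subunit and links it to eIF4F. Its 14 genes had a median difference of -0.13, with 8 lower and 1 higher. Over all genes 35.4% were lower and 34.4% higher as deposited, and 33.0% were lower with spike-in scaling. Lower members numbered 6 with spike-in scaling, 6 in TPM and 7 with median-ratio scaling, and 7 of 12 without the near-identical EIF3C and EIF3CL. Shares of all genes in TPM and with median-ratio scaling are not given here. EIF3K, a peripheral subunit, had 1497 and 1445 at 0 h, 2457 and 2590 at 3 h and 2777 and 2957 at 6 h in si-CPSF6, against 2081 and 2141 at 0 h, 3976 and 3831 at 3 h and 5315 and 5182 at 6 h in si-NC (log2 -0.67, SE 0.04, adjusted p = 6.1e-10). EIF3D, a subunit that can itself bind the cap of some mRNAs, had 2496 and 2236 at 0 h, 2808 and 2676 at 3 h and 2180 and 2426 at 6 h in si-CPSF6, against 3141 and 2859 at 0 h, 3954 and 4004 at 3 h and 3660 and 3671 at 6 h in si-NC (log2 -0.52, SE 0.04). EIF3K was lower in si-CPSF6 within each time, and for EIF3D no si-CPSF6 library reached any si-NC library. The core subunits EIF3A and EIF3B fell by 0.40 and 0.39 (SE 0.05 and 0.05), and smaller falls were seen for EIF3G (-0.22), EIF3C (-0.14), EIF3M (-0.14) and EIF3H (-0.09). EIF3A had 4562 and 4182 at 0 h, 2795 and 2540 at 3 h and 1699 and 1822 at 6 h in si-CPSF6, against 5845 and 5555 at 0 h, 3587 and 3606 at 3 h and 2088 and 2474 at 6 h in si-NC. EIF3B had 5036 and 5076 at 0 h, 5337 and 5559 at 3 h and 4329 and 4891 at 6 h in si-CPSF6, against 5234 and 5647 at 0 h, 6647 and 7067 at 3 h and 7026 and 8190 at 6 h in si-NC, with the gap widest at 6 h (-0.72).

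The exception was EIF3F, an MPN-domain subunit, which rose by 0.42 on average (SE 0.04, adjusted p = 4.8e-08). It had 3763 and 3783 at 0 h, 6250 and 6142 at 3 h and 7010 and 7054 at 6 h in si-CPSF6, against 2312 and 2245 at 0 h, 3667 and 3871 at 3 h and 8222 and 7828 at 6 h in si-NC. The excess at 0 h and 3 h (0.73 and 0.72) was replaced at 6 h by a deficit of -0.19 (adjusted p = 0.015), so the average does not describe the last time. EIF3E, EIF3I, EIF3J, EIF3L and EIF3CL had differences between -0.11 and 0.03 that did not pass. The members EIF3E, EIF3F, EIF3H and EIF4B have the 5′ terminal oligopyrimidine tract through which mTOR controls translation, and of these 4 genes 1 rose and 2 fell as counts, against 69.8% of all genes that passed in either direction; neither fall passed in TPM.

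Among the factors of scanning and start site choice 2 of 7 rose and 2 fell. EIF1B, a close paralog of the start codon gatekeeper EIF1, had 928 and 813 at 0 h, 740 and 627 at 3 h and 302 and 409 at 6 h in si-CPSF6, against 744 and 677 at 0 h, 458 and 405 at 3 h and 266 and 293 at 6 h in si-NC (log2 0.43, SE 0.08, adjusted p = 0.00024). EIF1AD, which shares the eIF1A fold, had 569 and 522 at 0 h, 270 and 286 at 3 h and 206 and 246 at 6 h in si-CPSF6, against 562 and 607 at 0 h, 152 and 161 at 3 h and 215 and 166 at 6 h in si-NC (log2 0.33, SE 0.08). The excess of both genes was widest at 3 h (0.66 for EIF1B and 0.82 for EIF1AD), and neither passed at 0 h or 6 h alone. EIF1 fell by 0.14 (SE 0.06, adjusted p = 0.046) as a count and had 0.03 in TPM, which did not pass. EIF1AY, the Y-linked copy of eIF1A, fell by 1.15 (SE 0.06), and its X-linked counterpart EIF1AX had -0.05, which did not pass. EIF5, which triggers GTP hydrolysis on eIF2, and EIF5B, which joins the subunits, had differences of 0.10 and -0.02 that did not pass as counts, but EIF5 was higher in TPM (0.61, adjusted p = 0.00024).

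EIF5A and EIF6 act after or around the start. EIF6, which keeps free large subunits from joining, had 5944 and 6081 at 0 h, 7856 and 8651 at 3 h and 7485 and 8344 at 6 h in si-CPSF6, against 6931 and 7183 at 0 h, 10258 and 10368 at 3 h and 11242 and 11960 at 6 h in si-NC (log2 -0.37, SE 0.04, adjusted p = 1e-06). EIF5A, the hypusine-bearing factor that helps ribosomes through difficult peptide bonds, had 10011 and 9856 at 0 h, 16663 and 16546 at 3 h and 21249 and 20576 at 6 h in si-CPSF6, against 7462 and 7927 at 0 h, 14784 and 15256 at 3 h and 23634 and 23495 at 6 h in si-NC. Its average difference of 0.11 (SE 0.03, adjusted p = 0.0088) combined an excess of 0.37 at 0 h with a deficit of -0.17 at 6 h (adjusted p = 0.024), and it did not pass with spike-in scaling (0.07, adjusted p = 0.48). EIF5A2, its low-abundance paralog, had 335 and 365 at 0 h, 475 and 437 at 3 h and 552 and 542 at 6 h in si-CPSF6, against 312 and 311 at 0 h, 389 and 396 at 3 h and 194 and 259 at 6 h in si-NC (log2 0.55, SE 0.07, adjusted p = 6.8e-06). The arms differed mainly at 6 h as counts, whereas in TPM all 6 si-CPSF6 libraries (7.05 to 11.1 TPM) lay above all 6 si-NC libraries (1.46 to 4.31 TPM, adjusted p = 1.2e-05). Counts and TPM differ by the apparent transcript length, given further on, which differed by -0.95 for EIF5A2. The TPM separation is therefore not a result separate from that length. How many of all genes separate so in TPM was not counted.

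Of the 16 higher and 20 lower members, 14 and 18 also passed in the same direction with spike-in scaling, on which 59.0% of all genes passed, 25.9% higher and 33.0% lower. With TPM, 16 of the higher and 15 of the lower members passed in the same direction, EIF2AK2 passed in the other direction and 4 did not pass. In 5 members all 6 si-CPSF6 libraries lay above all 6 si-NC libraries (EIF4A2, EIF4G3, EIF2A, EIF2AK4 and EIF2B2), and in 5 they lay below (EIF4EBP2, EIF2B5, EIF3D, EIF4E2 and EIF1AY). Over all genes such separation was seen in 5.57% and 6.58%.

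Before actinomycin D acted, at 0 h, the comparison shows levels while transcription was running. Of the 53 members 10 were higher and 12 lower, against 42.9% of all genes that passed (21.8% higher and 21.1% lower). EIF3F led the rises (0.73, SE 0.06, adjusted p = 4.1e-07), followed by EIF5AL1 (0.65), EIF4G3 (0.64), EIF2B2 (0.55), EIF4A2 (0.55), EIF4A1 (0.51), EIF5A (0.37), EIF4G1 (0.31), EIF2A (0.29) and EIF2S2 (0.21). EIF5AL1 rests on low counts, 26 and 27 at 0 h in si-CPSF6 against 17 and 16 in si-NC, and lost its call when any 1 of the 4 libraries at 0 h was left out (adjusted p = 0.094 to 0.14). EIF4EBP2 led the falls (-1.18, SE 0.10, adjusted p = 8.7e-07), followed by EIF1AY (-0.81), EIF2AK1 (-0.70), EIF3K (-0.52), EIF2D (-0.39) and EIF3A (-0.38). EIF4G1 lost its call without si-CPSF6 replicate 2 (0.25, adjusted p = 0.055) or si-NC replicate 1 (0.24, adjusted p = 0.064). Spike-in scaling moved the median of all genes at 0 h to -0.13, and then 4 members were higher and 9 lower, against 8.87% and 19.7% of all genes (28.6% in all). EIF3F (0.59), EIF4G3 (0.50), EIF4A2 (0.42) and EIF4A1 (0.37) were the higher members on that scale.

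At the later times the same comparison was made under actinomycin D. At 3 h 13 members were higher and 17 lower in si-CPSF6 (26.2% and 29.1% of all genes, 55.3% together), and at 6 h 9 were higher and 23 lower (27.0% and 28.6% of all genes, 55.7% together). EIF2S2, for example, was higher at 0 h (0.21) and lower at 6 h (-0.24, adjusted p = 0.0066). EIF2AK3, EIF4ENIF1 and EIF5A2 had differences of 0.15, -0.03 and 0.17 at 0 h that did not pass, and of 1.18, 1.14 and 1.28 at 6 h that did. EIF4EBP2 stood at -1.47 at 3 h and -1.55 at 6 h.

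The next pair of comparisons follows each arm from 0 h to 6 h without transcription, which shows how long the existing mRNAs last. Because each library was scaled to the same upper quartile, a value as deposited is a change relative to that quartile, and is read against the median of all genes rather than against 0. Spike-in scaling sets each library to the RNA added to a fixed mass of total RNA, and so gives the change per mass of total RNA. Over 6 h the median of all genes was 0.35 in si-CPSF6 and 0.31 in si-NC as deposited, and -0.51 in si-CPSF6 and -0.66 in si-NC with spike-in scaling. In si-CPSF6 27 members were higher and 10 lower at 6 h than at 0 h, against 49.8% and 27.6% of all genes (77.4% in all). In si-NC 35 were higher and 12 lower, against 48.6% and 30.7% of all genes (79.3% in all). With spike-in scaling 1 was higher and 34 lower in si-CPSF6 (5.77% and 52.6% of all genes, 58.4% together), and 7 were higher and 32 lower in si-NC (10.2% and 58.0% of all genes, 68.2% together).

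The 6 members with the steepest falls were the same in both arms and on both scales. EIF2AK3 changed by -1.58 in si-CPSF6 and -2.61 in si-NC as deposited, and with spike-in scaling by -2.44 in si-CPSF6 and -3.57 in si-NC. EIF2B4, the delta subunit of eIF2B, had 2011 and 1891 at 0 h, 1298 and 1262 at 3 h and 552 and 605 at 6 h in si-CPSF6, against 1892 and 1882 at 0 h, 1289 and 1394 at 3 h and 699 and 705 at 6 h in si-NC, spike-in scaled changes of -2.61 and -2.39. Each later time held lower values in both arms. The other members of the 6 were EIF1AD (-2.13 in si-CPSF6 and -2.58 in si-NC), EIF1B (-2.16 and -2.30), EIF3A (-2.17 and -2.29) and EIF4E (-1.92 and -2.38), all with spike-in scaling. Partners in the same complexes had other values: EIF4G1 stood at -0.01 and -0.26, and neither passed.

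**Figure D3:**
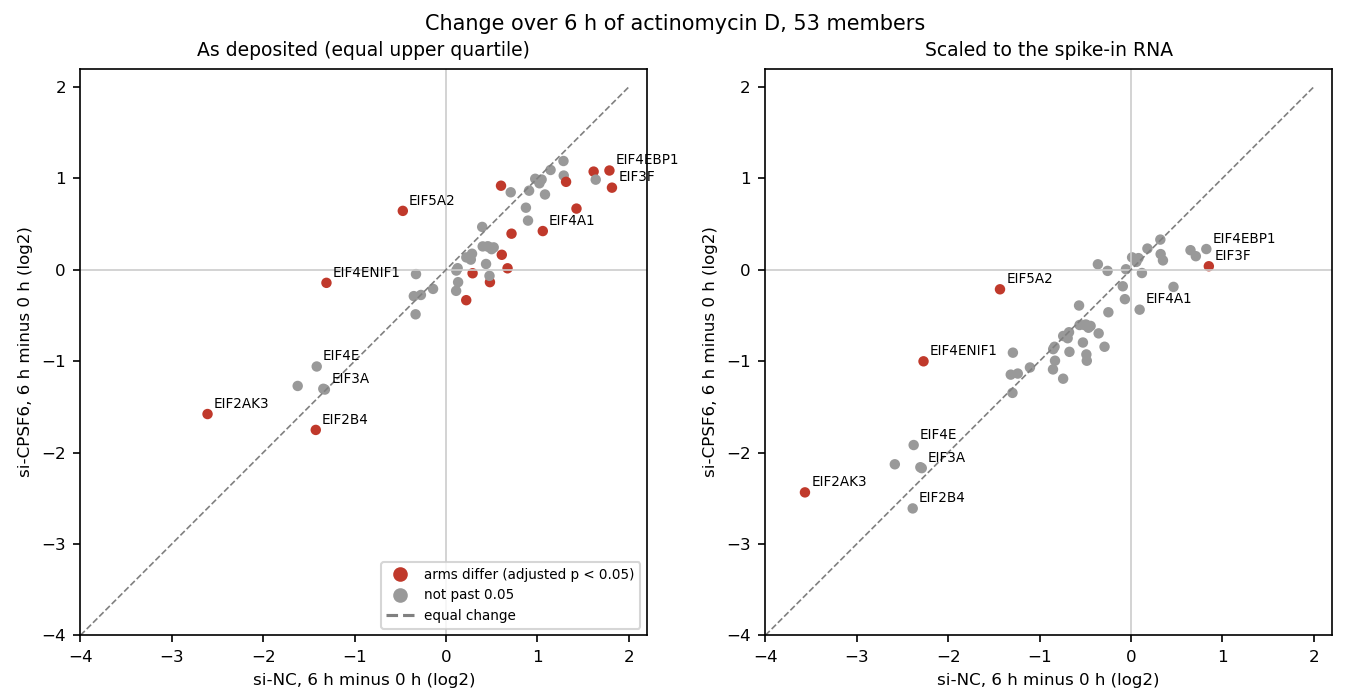
Log2 change over 6 h of actinomycin D of the 53 members, in si-NC (horizontal) and si-CPSF6 (vertical), as deposited (left) and with spike-in scaling (right); the dashed line marks equal change and red points passed the test of the difference between arms. EIF2AK3 lies lowest in si-NC on both panels (-2.61 and -3.57), EIF4ENIF1 and EIF5A2 lie above the line, and 4 points are red on the right.

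At the other end, EIF3I, EIF3F, EIF4EBP1 and EIF5A kept or gained level in at least 1 arm. EIF3I, the WD-repeat subunit, had 4086 and 3913 at 0 h, 7231 and 7512 at 3 h and 9051 and 9194 at 6 h in si-CPSF6, against 3843 and 4336 at 0 h, 7410 and 7528 at 3 h and 9974 and 9925 at 6 h in si-NC, and it passed as higher at 6 h in both arms with spike-in scaling too (0.33 and 0.32, adjusted p = 0.049 and 0.048). EIF3H had 4167 and 4116 at 0 h, 6541 and 6401 at 3 h and 8307 and 8204 at 6 h in si-CPSF6, against 4475 and 4243 at 0 h, 7553 and 6886 at 3 h and 8856 and 8298 at 6 h in si-NC, with spike-in scaled changes of 0.14 and 0.01 that did not pass. EIF3F and EIF4EBP1 were the most raised in si-NC (0.85 and 0.82, spike-in scaled), with 0.04 and 0.23 in si-CPSF6 that did not pass. EIF5A showed the same order, 0.21 in si-CPSF6 (not passed) and 0.65 in si-NC (adjusted p = 4.9e-05). The further members higher in si-NC on this scale were EIF1AY, EIF3K and EIF5AL1. EIF4G1, EIF4A1, EIF6 and EIF2S1 were above 0 as deposited and below 0 with spike-in scaling in at least 1 arm.

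Whether the course differed between the arms was tested as the change over 6 h in si-CPSF6 minus that in si-NC. Of the 53 members 4 were higher and 13 lower, against 24.4% of all genes that passed (12.0% higher and 12.4% lower). With spike-in scaling 3 were higher and 1 lower (6.86% and 1.83% of all genes, 8.70% together), and with the replicate number as a block the count of lower members was 20. The 7 that were lower with the block alone were EIF1, EIF2B1, EIF2D, EIF2S3, EIF3J, EIF4E2 and EIF4EBP2, EIF2AK4 was then higher as well (0.28, adjusted p = 0.018), and no call was lost. Relative to the upper quartile, EIF4ENIF1 changed by -0.14 in si-CPSF6, which did not pass, and by -1.31 in si-NC. The difference was 1.16 (SE 0.14, adjusted p = 3.9e-05). EIF4ENIF1 also differed on the spike-in scale (1.27, adjusted p = 0.00034) and in TPM (1.15, adjusted p = 0.018). EIF5A2 was higher by 0.64 at 6 h in si-CPSF6 and lower by 0.47 in si-NC, again relative to the upper quartile. These values within an arm are not changes per mass of total RNA. The difference was 1.12 for EIF5A2 (SE 0.18, adjusted p = 0.00046) and 1.03 for EIF2AK3 (SE 0.27, adjusted p = 0.012). Both passed on the spike-in scale (1.22 and 1.13) and not in TPM (0.77 and 0.64), while EIF2AK3 did not pass without si-NC replicate 1 at 0 h (0.90, adjusted p = 0.057). Leaving out 1 si-NC library at 6 h moved the EIF2AK3 difference most, to 0.66 without replicate 1 (adjusted p = 0.028) and 1.40 without replicate 2 (adjusted p = 0.00025). EIF2AK1 differed by 0.32 (adjusted p = 0.045) and lost the call without any 1 of 8 libraries, with the value lowest without si-CPSF6 replicate 1 at 0 h (0.23, adjusted p = 0.20), and on the spike-in scale (0.42).

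On the lower side, EIF3F changed by 0.90 in si-CPSF6 and 1.82 in si-NC. The difference of -0.92 (SE 0.09, adjusted p = 5.2e-06) passed on the spike-in scale as well (-0.81, adjusted p = 0.0069). EIF4EBP1 (-0.70), EIF4A1 (-0.64), EIF5A (-0.54) and EIF2B3 (-0.66) passed as deposited and in TPM, but not on the spike-in scale. A call lost on that scale does not show that a difference is absent. The spike-in factors of the 2 replicates at 6 h were 1.41 and 1.215 in si-NC, and 1.377 and 1.298 in si-CPSF6. The effect of that spread on the calls was not tested. EIF2B3 had 565 and 519 at 0 h, 599 and 655 at 3 h and 557 and 538 at 6 h in si-CPSF6, against 483 and 516 at 0 h, 575 and 630 at 3 h and 774 and 820 at 6 h in si-NC, so its values were highest in the 6 h libraries of si-NC. EIF1AY (-0.76), EIF3B (-0.62), EIF2B5 (-0.55), EIF2S2 (-0.45), EIF3K (-0.35), EIF3D (-0.33), EIF2B4 (-0.33) and EIF6 (-0.32) passed as deposited and neither with spike-in scaling nor in TPM. EIF6 lost the call without any 1 of 6 libraries (adjusted p = 0.056 to 0.13). Over 0 h to 3 h 2 members differed, EIF4ENIF1 and EIF1AD, both higher. The share of all genes for that step is not given here, so this count is not read as particular to the members.

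Because CPSF6 acts on the choice of mRNA ends, the length of the members' transcripts was read from both deposited tables together. A normalized count divided by the TPM is proportional to the mean effective length that the authors' quantification used for the gene's transcripts. That length need not equal the full transcript length. The quotient was expressed in bases by setting 419 genes with 1 annotated transcript to their annotated length. It cannot say which part of a transcript differs. Centred on those 419 genes, a setting added after seeing the data, 11 members were shorter and 2 longer in si-CPSF6, averaged over the times, against 9.93% shorter and 3.74% longer over 12895 genes (13.7% in all). Centred on the median of each library instead, 32 members passed as longer and 10 as shorter (40.5% and 9.32% of all genes, 49.8% together), but the 419 genes of fixed length then stand at 0.08 themselves. All 11 shorter members and both longer ones are given here on the first centring.

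The largest differences lay in EIF5A2 (-0.95, SE 0.12, adjusted p = 0.0027) and EIF2AK2 (-0.89, SE 0.03, adjusted p = 1.1e-05). The apparent length of EIF2AK2, in bases, was 4436 and 4727 at 0 h, 4958 and 5148 at 3 h and 6306 and 6433 at 6 h in si-CPSF6, against 9504 and 8519 at 0 h, 10633 and 10278 at 3 h and 10328 and 10550 at 6 h in si-NC. EIF2AK2 lies on chromosome 2 (37099210 to 37157065, minus strand), and its longest annotated coding transcripts have 10042 and 4343 bases. EIF5A2 (chromosome 3, 170888415 to 170908693, minus strand), whose longest coding transcript has 5593 bases, read 1959 and 1883 at 0 h, 2230 and 2484 at 3 h and 1661 and 2495 at 6 h in si-CPSF6, against 4162 and 5108 at 0 h, 4169 and 4042 at 3 h and 4114 and 3224 at 6 h in si-NC. EIF5 (-0.48, SE 0.04) read 1689 and 1767 at 0 h, 1782 and 1914 at 3 h and 2614 and 2457 at 6 h in si-CPSF6, against 2767 and 2435 at 0 h, 2769 and 2745 at 3 h and 3226 and 3195 at 6 h in si-NC. EIF4B (-0.32, SE 0.01) read 2722 and 2803 at 0 h, 2653 and 2651 at 3 h and 2495 and 2470 at 6 h in si-CPSF6, against 3342 and 3335 at 0 h, 3389 and 3346 at 3 h and 3239 and 3299 at 6 h in si-NC. For EIF2AK2, EIF5A2 and EIF4B the arms did not overlap in any library, and for EIF5 they did not overlap within a time. How many of all genes separate so in apparent length was not counted, so this is not read as particular to these members.

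The further shorter members were EIF1AD (-0.46), EIF1AX (-0.31), EIF2S1 (-0.27), EIF4E2 (-0.26), EIF1 (-0.13), EIF4E (-0.13) and EIF2B5 (-0.10). EIF2S1 read shorter at 0 h (-0.63) and not at 6 h, where its arms overlapped. At single times EIF1, EIF4E and EIF4E2 did not pass, and EIF1AD did not pass at 3 h (-0.14). EIF1AX passed at 3 h alone, EIF2B5 at 6 h alone and EIF5A2, described above, at 0 h alone. EIF4G1 and EIF4A2 were the longer members, each by 0.05, and among single times passed at 6 h alone. Leaving out 1 library was tried only with the centring on the median of each library. EIF4EBP2, with the largest fall in level, read between 7916 and 7977 bases in all libraries. It has 1 annotated coding transcript, of 7257 bases. Its reading could therefore hardly change, and a change of its end was not tested. EIF4EBP1 and EIF1B also have 1 annotated coding transcript and read below its length. EIF4EBP1 read 548 to 584 bases against 1020 annotated, and EIF1B 723 to 760 against 1010. The readings are therefore not accurate in bases, and only differences between libraries of the same gene are used.

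**Figure D4:**
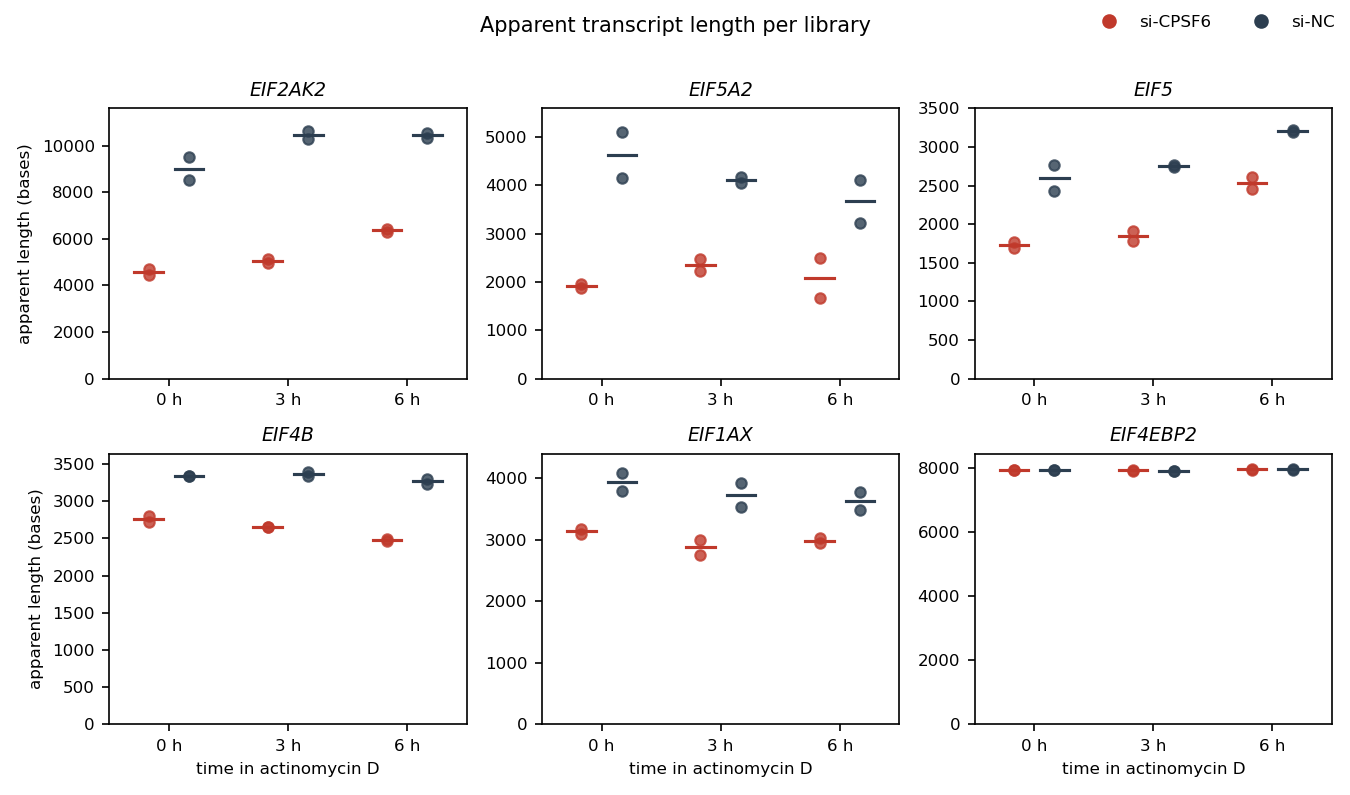
Apparent transcript length in bases in each library for EIF2AK2, EIF5A2, EIF5, EIF4B, EIF1AX and EIF4EBP2 by time in actinomycin D, si-CPSF6 in red and si-NC in dark blue, with a bar at the mean of the 2 replicates. EIF2AK2 reads 4436 to 6433 bases in si-CPSF6 against 8519 to 10633 bases in si-NC. EIF4EBP2 has 1 annotated coding transcript, so its reading could hardly change, and it reads nearly the same in both arms.

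For the 3 members with the largest differences, the ends of long annotated coding transcripts that hold a polyadenylation hexamer are shown, to let the signal at such an end be seen. Other annotated ends of these genes are not shown, and the readings do not say which end was used. Each line gives the 30 bases around the polyadenylation hexamer (AATAAA or ATTAAA, in capitals) upstream of an annotated coding transcript end, read from the GENCODE 29 transcripts on hg38, 5′ to 3′ on the strand of the gene.
EIF2AK2, distal end, transcript of 10042 bases, chr2:37099217-37099246, minus strand: aataacacttgaAATAAAtgtttattagaa
EIF5A2, distal end, transcript of 5593 bases, chr3:170888424-170888453, minus strand: tcagttgtattaAATAAAaatagttaacag
EIF5, end of the transcript of 3417 bases, chr14:103342608-103342637, plus strand: aacatttgatgtAATAAAacttggttggct
EIF5, end of the transcript of 4384 bases, chr14:103343178-103343207, plus strand: ctttgctttaatATTAAAgttaacaagttt
EIF5, end of the transcript of 5945 bases, chr14:103344987-103345016, plus strand: aaagtagattttAATAAAgtgtgaaagttg
The 5 printed ends were chosen because they hold a hexamer in their last 40 bases, searched on the transcript strand only. Of the distinct ends of annotated coding transcripts, 1 of 5 for EIF2AK2, 2 of 4 for EIF5A2 and 4 of 9 for EIF5 hold one there. Over all 83119 coding transcripts the share is 42.9%, counted per transcript and not per end. The TGTA motif, the DNA form of the sequence that cleavage factor Im binds, occurs once in the last 100 bases of the printed EIF5A2 end and of each printed EIF5 end and not in those of the printed EIF2AK2 end. Of the same distinct ends, 1 of 5 for EIF2AK2, 3 of 4 for EIF5A2 and 4 of 9 for EIF5 hold it there. Over all coding transcripts the share is 39.4%, again counted per transcript. The end of the 4343-base transcript of EIF2AK2 carries no hexamer.

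Ratios between paralogs, in TPM, asked whether the balance within a pair of related factors differed between the arms. Each of 7 pairs was tested with an exact two-sided permutation test within the times, for which the smallest possible p is 0.0093 and whose values were adjusted over the 7 pairs. The ratio of EIF5A to EIF5A2 was 49.9 to 93.9 in si-CPSF6 and 98.4 to 503 in si-NC, with no overlap (log2 -1.39, exact permutation p = 0.0093, adjusted p = 0.016). From normalized counts instead of TPM that difference was -0.44 and did not pass (exact permutation, adjusted p = 0.26). Counts and TPM differ by the apparent length, which differed by -0.95 for EIF5A2 and 0.03 for EIF5A. The ratio in TPM is therefore not a result separate from that length reading. The ratio of EIF4EBP1 to EIF4EBP2 was 12.1 to 30.4 in si-CPSF6 and 6.53 to 20.6 in si-NC (log2 0.96). EIF4E to EIF4E2 stood at 0.459 to 0.833 in si-CPSF6 and 0.185 to 0.687 in si-NC (log2 0.62), and EIF4G1 to EIF4G2 at 0.601 to 0.723 in si-CPSF6 and 0.488 to 0.655 in si-NC (log2 0.34). These 3 ratios were higher in si-CPSF6 within the times (exact permutation p = 0.0093 and adjusted p = 0.016 for each), while their ranges over all times overlapped. EIF1 to EIF1B was lower (log2 -0.40, exact permutation p = 0.019, adjusted p = 0.026) and lost the call without si-CPSF6 replicate 1 at 0 h, si-CPSF6 replicate 2 at 6 h or either si-NC replicate at 6 h (exact permutation, adjusted p = 0.052 to 0.074). EIF4A1 to EIF4A2 (log2 -0.27, exact permutation adjusted p = 0.065) and EIF4G1 to EIF4G3 (log2 -0.23, exact permutation adjusted p = 0.065) did not pass.

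The other genes of translation, 48 listed and 46 tested, had 12 that rose and 16 that fell (60.9%, against 69.8% of all genes), with a median of -0.03. DNAJC3, an inhibitor of PERK and PKR, had 2348 and 2347 at 0 h, 3906 and 3444 at 3 h and 4708 and 4733 at 6 h in si-CPSF6, against 1078 and 1080 at 0 h, 1251 and 1184 at 3 h and 2296 and 2675 at 6 h in si-NC (log2 1.21, SE 0.05, adjusted p = 1.4e-11). PAIP1, which links the poly(A)-binding protein to eIF4A, had 752 to 1174 in si-CPSF6, against 1853 to 2277 in si-NC (log2 -1.07, SE 0.06, adjusted p = 7.2e-10). The kinases that phosphorylate eIF4E moved apart: MKNK1 fell by 0.77 and MKNK2 rose by 0.92 (SE 0.06 and 0.09). EEF1E1, a component of the aminoacyl-tRNA synthetase complex, rose by 0.59, and RPS6KB2, a kinase downstream of mTOR, fell by 0.45. Of the regulators and targets of eIF2 phosphorylation 3 of 7 rose and 1 fell, the last being ATF4 (log2 -0.36, SE 0.04).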

How the data were processed

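HepG2 RNA was sequenced from 6 groups of 2 libraries, grouped by the titles in the labels. Per the submitters' processing notes the authors used STAR and RSEM with hg38, with no version, annotation or strand setting given in the sources used here. As a unit, the normalized counts the authors deposited are a score: the title of their table calls them normalized, and the values are whole numbers with an upper quartile of 660.5 or 661 in every library, so no count model was run. The authors also deposited TPM values, which keep no depth. Of 22235 entries 87 are spike-ins, added per the labels' protocols to 5 µg of total RNA, and 22144 of 22148 genes carry a symbol.

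From these values, log2(normalized count + 1) of the 12939 genes with a mean of at least 20 was fitted with limma 3.58.1 (R 4.3.3, 6 group means, 6 residual degrees of freedom, intensity trend, robust) and adjusted by Benjamini and Hochberg within each comparison over all genes. Fold changes are on this scale, which understates the change of low genes. TPM were fitted as log2(TPM + 0.1) for a mean of at least 1. Spike-in scaling divided each library by its summed spike-in value. Apparent length was log2 of the normalized count over TPM. Python 3.11.15, NumPy 2.4.6, pandas 2.3.3 and SciPy 1.17.1 did the rest. The limma fit was tested on simulated data for the average over the times only. The time comparisons, the apparent length, the spike-in scaling and the permutation test were not simulated. Members were named by rule: per comparison the 6 highest and 6 lowest that passed, plus a fixed list. The members and lists were chosen with earlier results of these data known; other members are named with values to complete a group. Alternatives were other pseudocounts, filters, scalings, limma settings, the replicate block, subsets of groups and leaving out each library; single times, the average without 6 h and the centring on genes with 1 transcript were added after seeing the data.

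Replicates correlated at 0.9911 to 0.9931. Nothing in the labels says that equal replicate numbers share a culture, but deviations of equal-numbered libraries correlated at 0.11 to 0.24 in all 15 pairs of groups, which meets the limit for taking them as pairs. The fits reported have no replicate block, and the fit with the block is an alternative. The labels call the replicates biological and do not say that they came from separate cultures, so p-values measure the spread between these samples. Library sums of normalized counts are not sequencing depth, which is unknown here.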

Additional observations from a re-analysis of the deposited data

Results flagged for a closer look

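In 17 of the 53 members the change over 6 h of actinomycin D differed between si-CPSF6 and si-NC in the test of the difference itself (limma, adjusted p under 0.05). Over all 12939 genes 24.4% passed this test, 12.0% higher and 12.4% lower. The 10 listed here are those with the largest differences, up to 6 in each direction. The change was greater in si-CPSF6 for EIF4ENIF1 (1.1649), EIF5A2 (1.1168), EIF2AK3 (1.0304) and EIF2AK1 (0.3176). It was smaller in si-CPSF6 for EIF3F (-0.9176), EIF1AY (-0.7585), EIF4EBP1 (-0.7023), EIF2B3 (-0.6576), EIF4A1 (-0.6357) and EIF3B (-0.6164). With spike-in scaling EIF4ENIF1, EIF5A2, EIF2AK3 and EIF3F still passed and the other 6 did not. On that scale 8.70% of all genes passed.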

How the results depend on the processing

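For single genes, leaving out 1 library kept direction and call in 1240 results, lost the call in 65, gained it in 8 and turned the direction in 7, and the other alternatives did so in 1002, 85, 10 and 30. Counts of members are given here as higher and lower. Spike-in scaling gave 4 higher at 0 h (10 as deposited), 1 and 34 for 6 h against 0 h in si-CPSF6 (27 and 10), 7 and 32 in si-NC (35 and 12) and 1 lower for the difference of the courses (13). The TPM table gave 8 and 33, 9 and 31, and 1 and 5 for these 3 comparisons, and median-ratio scaling 21 lower in si-CPSF6. The shares of all genes on those scales are not given here, so these counts are not read as particular to the members. With the replicate block 20 members were lower for the difference of the courses, and no other count moved by over 1.5 times. At 3 h instead of 6 h, 7 were lower in si-NC, and 2 were higher and 0 lower for the difference by limma (2 lower at an unadjusted p under 0.05). Shares of all genes are not given for these counts at 3 h either. At 6 h alone 9 were higher. For apparent length 0 were longer with no centring (0 also unadjusted), 21 at 0 h alone and 2 centred on genes with 1 transcript, against 32. The ratio of EIF5A to EIF5A2 was -0.4423 in normalized counts. Leaving out 1 library gave 15 to 17 higher and 18 to 21 lower on average, 7 to 12 and 10 to 12 at 0 h, 23 to 27 and 8 to 12 over time in si-CPSF6, 32 to 36 and 10 to 13 in si-NC, 2 to 5 and 9 to 15 for the difference of the courses (2 without si-NC replicate 1 at 0 h), and 28 to 31 longer and 8 to 10 shorter. The ratios ran between -0.5249 and -0.283 for EIF1 to EIF1B, -0.3055 and -0.231 for EIF4A1 to EIF4A2, and -0.285 and -0.1679 for EIF4G1 to EIF4G3.

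Direction turned, with the cause not tested, as follows. Over time in si-CPSF6 EIF2S1 was -0.2656 (median-ratio), -0.843 (spike-in) and -1.144 (TPM), EIF4G1 -0.0127 (spike-in), EIF4A1 -0.437 (spike-in) and -0.35 (TPM), EIF6 -0.4655 (spike-in) and -0.3739 (TPM), and EIF2AK4 0.0596 at 3 h. In si-NC EIF2S1 was -0.1466, -0.8361 and -0.5268, EIF4G1 -0.2557 (spike-in) and -0.0902 (TPM), and EIF6 -0.247 and -0.1605. With spike-in scaling EIF2AK4 was -1e-04 at 0 h. For the change to 3 h EIF2AK1 was -0.1569, EIF4E -0.1171 and EIF3A -0.0491. At 6 h alone EIF4A1 was -0.1269 and EIF5A -0.1724. Apparent length with no centring was -0.0126 for EIF4A1, -0.0184 for EIF2AK4, -0.0339 for EIF3A, -0.0027 for EIF5A and -0.0211 for EIF6. At 0 h alone it was -0.0679 for EIF2AK3 and -0.0036 for EIF2AK4, and centred on genes with 1 transcript -0.0025 for EIF3A. Leaving out 1 library gave EIF2S1 -0.0148 to 0.048 in si-CPSF6, -0.0475 to 0.3016 in si-NC and -0.285 to 0.064 for the difference, and EIF3A -0.108 to 0.1366 for the difference. Sequencing depth, unknown here, and 2 libraries per group limit the precision.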
